A study of Mus musculus with 6 samples.

Results

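The water channel genes Aqp1, Aqp5 and Mip were followed in lens RNA of wild-type mice and of mice homozygous for the Fgf9 Y162C change. They were picked by gene symbol as the aquaporins of the lens, with earlier results of these arrays known, among them a higher Aqp1 signal in the homozygotes. Their genotype difference is therefore given as a description, with no test. The 3 genes are 3 of 16593 named genes on the array and were read by 6 probes, 3 for Aqp1, 2 for Aqp5 and 1 for Mip. All 6 probes were above background on all 6 arrays and passed the filter on dim signals.

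Aquaporins are membrane proteins that let water cross the cell membrane along an osmotic gradient. The lens has no blood supply and depends on a circulation of ions and water between its surface and its core. AQP1 is the water channel of the lens epithelium, the single layer of cells on the anterior face. Mip encodes aquaporin 0, the most abundant membrane protein of the fibre cells, which also takes part in fibre adhesion and whose loss causes cataract. AQP5 is found in epithelium and fibres and is known for regulated insertion into the membrane.

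The series holds 3 wild-type mice (1 female, 2 males by label) and 3 mice in which both Fgf9 copies carry Y162C (2 females, 1 male by label). Both groups were of strain C57BL/6J and 18 weeks old, and each mouse's lens RNA was hybridised to 1 Illumina array. Fgf9 encodes a secreted fibroblast growth factor, and the series title calls the mutation neomorphic. The RNA is from lens as a whole, so more cells of a type and more RNA per cell cannot be told apart in any value below.

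Array facts touch the results as follows. Mean signal over all probes ran from 191 to 200.4 on wild-type arrays and from 161.6 to 165.7 on homozygous arrays, so homozygous arrays were dimmer before normalization. Probes detected, meaning a detection p-value under 0.05 against negative control beads, numbered 8713 to 9671 and 7816 to 8396. Of 14 lens fibre genes on the array 13 were tested, and all 13 were above background on every array, among them Cryaa and Bfsp1. Wild type replicate 2 stood highest for photoreceptor, pigment cell and inner retina genes. Wild type replicate 3 is labelled male, but both Xist probes were above background on it and Eif2s3y was not. The Fgf9 probe was above background on 0 arrays and does not check the genotype, which is a substitution.

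The start regions of the 3 genes are shown to set out how unlike their base compositions are, and not to account for any genotype difference. Each runs from 250 bases before to 50 bases after the gene's annotated start, from RefSeq, build GRCm38.p6, plus strand. Capitals mark matches on either strand to any of 4 motifs. The TATA box was searched as TATAAA. The GC box, a site of Sp-family factors, was searched as GGGCGG. The core of a hypoxia response element was searched as ACGTG. The E-box was searched as CACGTG and holds that core within it. The Aqp1 region is chr6:55336049-55336348, the Aqp5 region chr15:99590778-99591077 and the Mip region chr10:128225560-128225859.
Aqp1: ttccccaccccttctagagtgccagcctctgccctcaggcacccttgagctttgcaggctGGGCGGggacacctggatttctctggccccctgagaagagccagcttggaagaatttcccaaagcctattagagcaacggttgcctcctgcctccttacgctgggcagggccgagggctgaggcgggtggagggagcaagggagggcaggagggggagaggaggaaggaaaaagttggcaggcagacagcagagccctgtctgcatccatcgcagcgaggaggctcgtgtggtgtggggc
Aqp5: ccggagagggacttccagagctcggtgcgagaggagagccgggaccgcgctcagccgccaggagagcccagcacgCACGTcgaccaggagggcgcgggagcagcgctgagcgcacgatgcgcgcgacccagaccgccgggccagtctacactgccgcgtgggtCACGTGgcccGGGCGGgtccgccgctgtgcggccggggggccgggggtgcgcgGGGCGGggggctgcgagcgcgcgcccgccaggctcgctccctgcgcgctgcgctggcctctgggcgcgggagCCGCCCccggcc
Mip: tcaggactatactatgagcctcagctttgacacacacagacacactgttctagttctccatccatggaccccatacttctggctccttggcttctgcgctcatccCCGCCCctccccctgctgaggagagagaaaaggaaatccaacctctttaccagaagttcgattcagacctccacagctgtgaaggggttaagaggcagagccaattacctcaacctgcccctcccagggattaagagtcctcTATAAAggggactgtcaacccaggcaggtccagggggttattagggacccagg

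The Aqp1 region held 1 GC box, at bases -190 to -185 from the start, and no match to the other motifs. The Aqp5 region held 3 GC boxes and an E-box at -87 to -82, with the hypoxia core inside it and once more at -175 to -171 on the opposite strand. The Mip region held a TATA box that spans the annotated start, from -3 to 3, and 1 GC box at -145 to -140. Among 32544 start regions of the same length, 13.6% hold the TATA box, 35.9% the GC box, 19.7% the hypoxia core and 7.17% the E-box. G and C made up 62.7% of the Aqp1 region, 79.7% of the Aqp5 region and 53.3% of the Mip region, against a median of 53% over all of them. A match is only these letters in this window.

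Aqp1 signal was higher in every homozygous lens than in any wild-type lens, at each of its 3 probes. The gene lies on chromosome 6 (55336299 to 55348555, GRCm38.p6). At ILMN_2756486, the brightest of the 3, the deposited signal was 1282, 1018 and 864.2 in wild type replicates 1, 2 and 3, and 1996, 1610 and 1817 in homozygous replicates 1, 2 and 3. The lowest homozygous array thus lay above the highest wild-type array before any normalization. After background correction and quantile normalization, which gives all arrays the same distribution, the log2 signal was 10.04, 9.59 and 9.47 in the wild type and 11.20, 10.76 and 11.03 in the homozygotes. The means were 9.70 ± 0.30 (SD, n = 3) and 11.00 ± 0.22 (SD, n = 3), a difference of 1.30 (SE 0.16) on the log2 scale, or 2.46-fold.

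Another Aqp1 probe, ILMN_2980661, had a deposited signal of 380.4, 439.2 and 347.9 in the wild type and of 526.3, 592.5 and 568 in the homozygotes. Its normalized log2 signal was 8.14, 8.19 and 7.95 against 9.16, 9.25 and 9.22. That is a difference of 1.11 (SE 0.13), or 2.17-fold, with a homozygous SD of 0.048 that was the smallest of the 3 Aqp1 probes. The remaining one, ILMN_2980663, read 245.4, 295.9 and 227.1 in the wild type and 379.6, 368.6 and 363.8 in the homozygotes. Its difference was 1.20 (SE 0.14), or 2.30-fold, on the normalized scale. The closest wild-type and homozygous arrays were 0.72, 0.96 and 0.96 log2 units apart at these probes, in the order given.

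The probes did not order the arrays alike within a genotype. Wild type replicate 1 was the highest wild-type array at the brightest probe, at -0.31 from that probe's 6-array mean, while wild type replicate 2 was the highest at both others, at -0.46 and -0.43. Wild type replicate 3 was the lowest wild-type array at all 3. Homozygous replicate 1 was highest at 2 probes and lowest at ILMN_2980661. The difference between genotype means was larger than the range within either genotype at each probe.

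In the fit over all tested probes, limma's adjusted p was under 0.05 for 3 of the 6 aquaporin probes, all of Aqp1, where 0.406% of 8618 tested probes were called in either direction and 0.139% were called higher. Homozygous values entirely above wild-type values, as at the Aqp1 probes, were found for 7.31% of tested probes, and entirely below for 7.47%. The genes were chosen with this contrast known, so nothing is read from these counts.

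**Figure D1:**
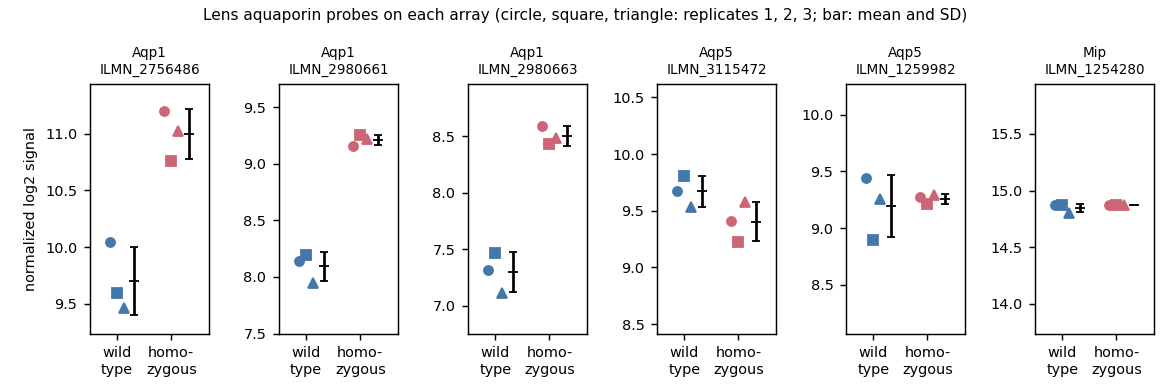
Normalized log2 signal (vertical axis, each panel spanning the same range of log2 units) of the 6 probes of Aqp1, Aqp5 and Mip on each array; blue symbols are wild type, red symbols homozygous, the shape gives the replicate, and bars give the mean and SD of 3 arrays. The Aqp1 groups are apart at each probe, the Aqp5 groups overlap, and Mip lies at 14.87 on 5 arrays.

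By labelled sex, the Aqp1 difference at the brightest probe was 0.94 between 1 wild-type and 2 homozygous females and 1.497 between 2 wild-type males and 1 homozygous male. It was 1.06 and 1.15 at ILMN_2980661 and 1.19 and 1.19 at ILMN_2980663. These values have too few arrays for a test, and the male label of wild type replicate 3 is in doubt. Leaving out 1 array at a time, the difference at the brightest probe ran from 1.19 to 1.47, and without wild type replicate 2 it was 1.25.

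Aqp5 signal was lower in homozygous lenses as deposited, at both probes, on arrays with a lower mean signal, and the groups overlapped once the arrays were normalized. The gene lies on chromosome 15 (99591028 to 99594829). Probe ILMN_3115472 had a deposited signal of 1005, 1156 and 899 in wild type replicates 1, 2 and 3 and of 613.6, 583.6 and 703.7 in homozygous replicates 1, 2 and 3. Probe ILMN_1259982 had 865.9, 655.6 and 752.4 in the wild type and 561.3, 579 and 593.6 in the homozygotes. On this scale the groups did not overlap at either probe. The share of all probes so separated on this scale was not counted. With neither background correction nor normalization, 2427 of 8618 tested probes were called lower by limma.

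After normalization, ILMN_3115472 read 9.68, 9.80 and 9.53 in the wild type and 9.41, 9.23 and 9.57 in the homozygotes, a log2 difference of -0.27 (SE 0.13). Homozygous replicate 3 lay above wild type replicate 3. ILMN_1259982 read 9.44, 8.90 and 9.25 in the wild type and 9.27, 9.21 and 9.29 in the homozygotes, a log2 difference of 0.06 (SE 0.14). Its spread was mostly within the wild type, with an SD of 0.28 (n = 3) against 0.041 (n = 3) in the homozygotes. The 2 probes thus differ in sign, and they placed wild type replicate 2 at opposite ends of its group. No fold is given for Aqp5.

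Mip had little room to show a rise in the normalized values. Its probe was at rank 2 of 25697 by signal on 5 arrays and rank 3 on wild type replicate 3. A fall past the next probes would have lowered its value. Wild-type means were 14.83 for Crybb2, 14.52 for Crygs and 14.42 for Cryba1. Quantile normalization sets a value by its rank, so Mip read 14.87 on 5 arrays and 14.81 on wild type replicate 3, a log2 difference of 0.02 (SE 0.08). Mip lies on chromosome 10 (128225810 to 128231812). Its deposited signal was 34434, 30909 and 27746 in the wild type and 29268, 29094 and 27825 in the homozygotes. Those ranges overlap, and the mean ratio of homozygous to wild type was 0.926. In the authors' processed values it was 27510, 25578 and 26653 against 36615, 34653 and 31428, a ratio of 1.29 with no overlap. The share of all probes so separated in those values was not counted. The direction for Mip therefore depends on the scale. Saturation of this bright probe was not analysed here.

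Settings that left the median of all tested probes below 0 placed all 6 probes lower than quantile normalization did. With no normalization between arrays and no background correction, the log2 differences of the Aqp1 probes were 0.79, 0.54 and 0.54, while the median over all tested probes was -0.21. Relative to that median they were 1.00, 0.74 and 0.75. On the same relative scale Aqp5 stood at -0.48 for ILMN_3115472 and -0.17 for ILMN_1259982, and Mip at 0.10. With median scaling, the median of tested probes was at -0.31, and the Aqp1 probes were at 0.88, 0.68 and 0.77. In the authors' processed values the Aqp1 probes were at 1.32, 1.16 and 1.27. Over 19 other settings the Aqp1 probes were above 0 in 19, ILMN_3115472 of Aqp5 was below 0 in 19, and ILMN_1259982 was above 0 in 14 and below 0 in 5. Mip was above 0 in 14, below 0 in 4, and at 0 without wild type replicate 3.

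**Figure D2:**
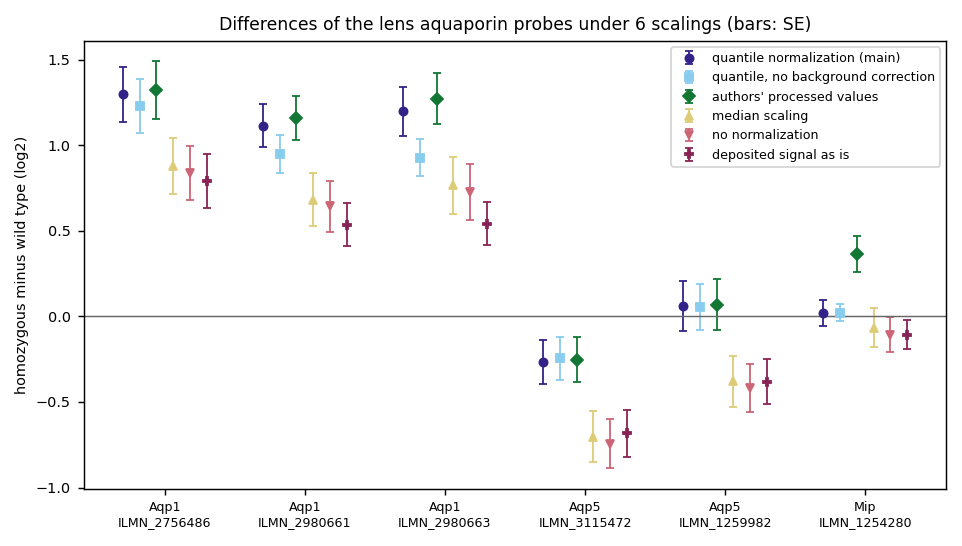
Log2 difference, homozygous minus wild type, of each aquaporin probe under 6 scalings of the same arrays; bars give the SE of the fit with 3 arrays per genotype. Aqp1 is above 0 in each, from 0.54 to 1.32, and Mip ranges from -0.11 to 0.36.

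The other aquaporins were mostly below the detection limit. The array holds 14 probes for 9 further aquaporin genes, and 12 of these probes were not tested, with signals of 68.1 to 100.7. Among them Aqp2, Aqp6, Aqp7, Aqp8, Aqp9 and Aqp12 were above background on 0 arrays. Aqp3, a glycerol-conducting channel known from cornea and skin, was above background on homozygous replicate 1 alone. Aqp4, the water channel of retinal glia and astrocytes, read 148.5, 169.2 and 128.8 in the wild type and 108.8, 105.4 and 107.9 in the homozygotes. Its normalized log2 difference was -0.55 (SE 0.20), with no overlap between groups, but it did not pass (limma adjusted p = 0.41). In 3 of 19 other settings it did pass as lower, with median scaling (limma adjusted p = 0.0402), with no normalization (limma adjusted p = 0.0247) and with neither correction (limma adjusted p = 0.0205). Aqp11, an intracellular aquaporin, was detected on all arrays at 1 of its 2 probes, with a log2 difference of 0.11 (SE 0.17, limma adjusted p = 0.882). Of these 2 tested genes 0 passed by limma, 1 had an unadjusted p under 0.05, and 0.435% of all 6430 tested genes passed. The share of all tested genes at an unadjusted p under 0.05 was not counted. Nothing is therefore read from such counts, here or below.

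**Figure D3:**
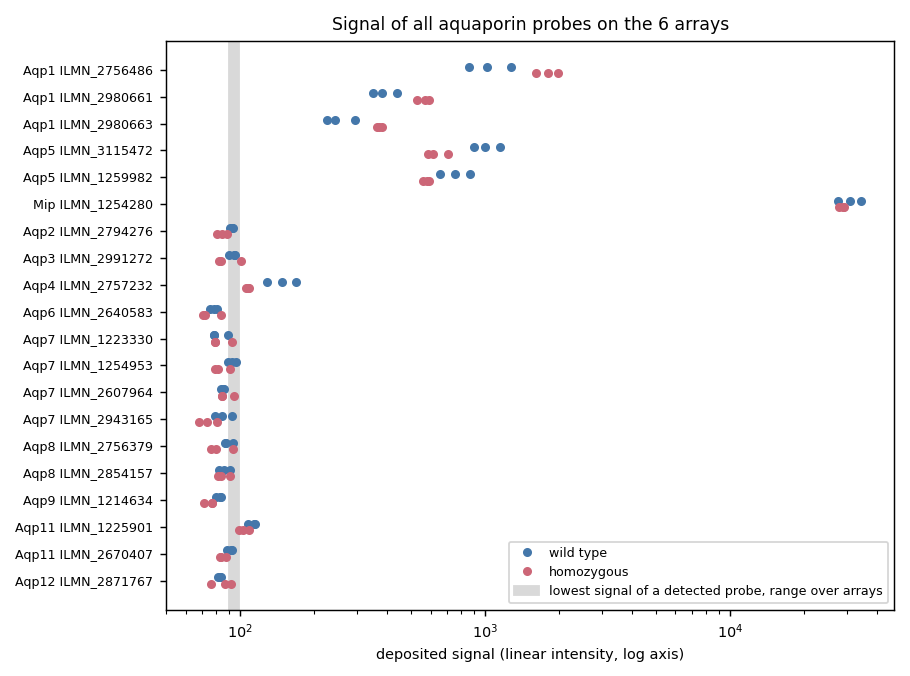
Deposited signal (linear intensity on a log axis) of all 20 aquaporin probes, 6 arrays each, blue for wild type and red for homozygous; the grey band is the range over arrays of the lowest signal of a detected probe. Only the probes of Aqp1, Aqp5, Mip and Aqp4 and 1 of Aqp11 stand to the right of the band on most arrays.

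Of 19 genes that bind or regulate the lens aquaporins, 16 were on the array and 10 were tested. By limma 0 passed and 0 had an unadjusted p under 0.05, with a median log2 difference of -0.05 against about 0 over all tested genes. Calm2, which encodes calmodulin, a ligand of the AQP0 tail, was at -0.30 and Prkar1a, a regulatory subunit of protein kinase A, at -0.23 (limma adjusted p = 0.637 and 0.691). The cytoskeletal partners of AQP0 were close to 0, Bfsp1 at 0.05 and Bfsp2 at -0.10. Akap2, whose product anchors protein kinase A to AQP0, was at 0.11, and Ezr, the membrane linker ezrin, at 0.09. Trpv1, a channel linked to lens water pressure, was above background on 0 arrays. With median scaling 3 of the list passed as lower, and with no normalization 7. In these settings the median of all tested probes was itself below 0. Of 8618 tested probes 817 and 1626 passed as lower there.

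Of 24 genes of ion and water circulation, 18 were on the array and 12 were tested. Sgk1, a kinase that raises sodium transport, fell 2.69-fold (log2 difference -1.43, SE 0.25, limma adjusted p = 0.0395), and 11 did not pass. Its log2 signal was 8.45, 9.64 and 9.05 in the wild type and 7.53, 7.95 and 7.39 in the homozygotes. The Sgk1 call was lost in 9 of 19 other settings, among them without wild type replicate 3 (limma adjusted p = 0.183) and without homozygous replicate 1, 2 or 3 (limma adjusted p = 0.267, 0.0822 and 0.281). Over all tested genes 0.327% were called lower and 0.109% higher. The list's median was 0.10. Slc12a2, the sodium-potassium-chloride cotransporter, was at 0.16, and the sodium pump subunits Atp1b1 and Atp1b3 were at 0.20 and 0.04. Another subunit, Atp1b2, was at -0.98 (SE 0.42) and did not pass (limma adjusted p = 0.513). It was above background on 3 wild-type arrays and 1 homozygous array.

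Genes of the response to osmotic stress had 5 tested members of 11 listed, of which 2 fell, 0 rose and 3 did not pass. Of all 6430 tested genes 0.327% were called lower. The list was chosen with earlier results of these arrays known, so nothing is read from the count. Slc6a6, the taurine transporter, fell 2.40-fold (log2 difference -1.26, SE 0.15, limma adjusted p = 0.00307). Sgk1 is the other, and its call was lost in 9 of 19 other settings, as given above. Slc6a6 read 9.57, 9.73 and 10.08 in the wild type and 8.33, 8.68 and 8.57 in the homozygotes, opposite in direction to Aqp1, and its call held in 19 of 19 other settings. Nfat5, the transcription factor of that response, was at 0.47 (limma adjusted p = 0.503). The list's median was -0.12.

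Markers of the cells that carry Aqp1 and Mip in the lens did not pass the test in the main fit. Without Aqp1, the lens epithelium list had 9 tested members of 14 on the array, 0 passing by limma and 2 at an unadjusted p under 0.05, with 8 above 0 and a median of 0.18. Averaged over its tested genes, the list deviated by 0.03, -0.16 and -0.13 in wild type replicates 1 to 3 and by 0.16, 0.06 and 0.04 in homozygous replicates 1 to 3. Its summed linear level was 4997 to 6003 and 5123 to 5923. Gja1, the connexin of the epithelium, was at 0.25 and Wls, a carrier of Wnt proteins, at 0.32 (limma adjusted p = 0.553 and 0.531). Pax6 and Npnt were above background on 0 arrays. The 13 tested lens fibre genes had a median of 0.05, with 0 passing and 1 at an unadjusted p under 0.05. With median scaling 1 epithelium gene and 2 fibre genes passed as lower, where 817 of 8618 tested probes did. With no normalization 1 and 6 passed as lower, where 1626 probes did. With neither correction they were again 1 and 6, where 2427 probes did. Without wild type replicate 1, with quantile normalization, 1 fibre gene passed as higher, where 52 probes did. Dnase2b, the nuclease of fibre nuclei, was at 0.54 and Lenep at -0.25 (limma adjusted p = 0.237 and 0.634). The part of cell composition in the Aqp1 difference was not tested.

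Other tissues of the eye also express Aqp1 or Aqp4, and few of their markers were detected. Ciliary epithelium had 3 tested members of 10, 0 passing by limma and 3 at an unadjusted p under 0.05. These were Aqp4 itself, which the list holds as a marker, Tyrp1, and Msx1, a homeobox transcription factor, at 0.32 (limma adjusted p = 0.491). The share of all tested genes at that unadjusted p was not counted. With median scaling, no normalization or neither correction 2 of the list passed as lower, and with the replicate block 1. Best2, Zic2, Col9a1 and Slc4a4 were above background on 0 arrays. Its summed level was 304.7 to 312.1 in the wild type and 296.6 to 319 in the homozygotes, and Tyrp1, above background on 3 wild-type and 0 homozygous arrays, did not pass (limma adjusted p = 0.174). Of 9 corneal genes on the array 0 were tested. Of 6 red cell genes on the array, Hba-a1 alone was tested, with a summed list level of 134.4 to 356.1 in the wild type and 40.1 to 166.9 in the homozygotes. Hba-a1 itself was at -2.29 and did not pass (limma adjusted p = 0.159), but it did pass with replicate 1 of either genotype left out. It also passed as lower with median scaling, no normalization, neither correction, array weights and the replicate block. Of 9 endothelial genes 1 was tested, Kdr at -0.05, and Pecam1, Cdh5, Tek, Vwf, Emcn and Tie1 were above background on 0 arrays.

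Of 6 tested inner retina and glia genes 5 fell in the homozygotes and 0 rose, where 0.327% of all 6430 tested genes were called lower. The 5 included Calb2 (log2 difference -2.34), Slc1a3 (-1.98), Slc6a9 (-1.65) and Sncg (-1.39), at limma adjusted p-values of 0.00102 to 0.00757. This list was known from earlier results to be lower. Each of the 6 was above background on 3 wild-type arrays but on only 0 to 2 homozygous arrays. Their homozygous mean log2 signals were 4.47 to 5.11, near background. They thus met the detection filter through the wild type, which favours a fall, and nothing is read from the count. The count was 3 without homozygous replicate 2 or 3 and with the authors' processed values. Its summed level was 422.8 to 783.7 in the wild type and 115.8 to 145.2 in the homozygotes, the same direction as Aqp4 and opposite to Aqp1. Photoreceptor genes, 14 tested, 0 passing by limma and 1 at an unadjusted p under 0.05, deviated by 1.58 on average in wild type replicate 2 but by -0.55 and -0.21 in wild type replicates 1 and 3. Their summed level was 2453 to 14301 against 2313 to 4874. Rcvrn, above background on 3 wild-type and 0 homozygous arrays, and Guca1a, at -1.14, did not pass (limma adjusted p = 0.374 and 0.57). Pigment cell genes, 6 tested, had 0 passing by limma and 4 at an unadjusted p under 0.05. They were summed at 315.4 to 1687 against 101.6 to 265.9, with Dct at -1.25 (limma adjusted p = 0.171). Lower calls numbered 1 without wild type replicate 1. They numbered 4 with median scaling, no normalization or the replicate block, and 5 with neither correction. Tyrp1 and Mlana were above background on 3 wild-type and 0 homozygous arrays, Dct and Rgr on 3 and 1, and Pmel on 3 and 2. These genes met the detection filter through the wild type, which favours a fall, and nothing is read from the counts. Wild type replicate 2 stood apart here too, at a mean deviation of 1.36 against 0.18 and 0.13 in wild type replicates 1 and 3. The part of these in the aquaporin differences was not tested, apart from the Aqp1 difference without wild type replicate 2 given above.

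**Figure D4:**
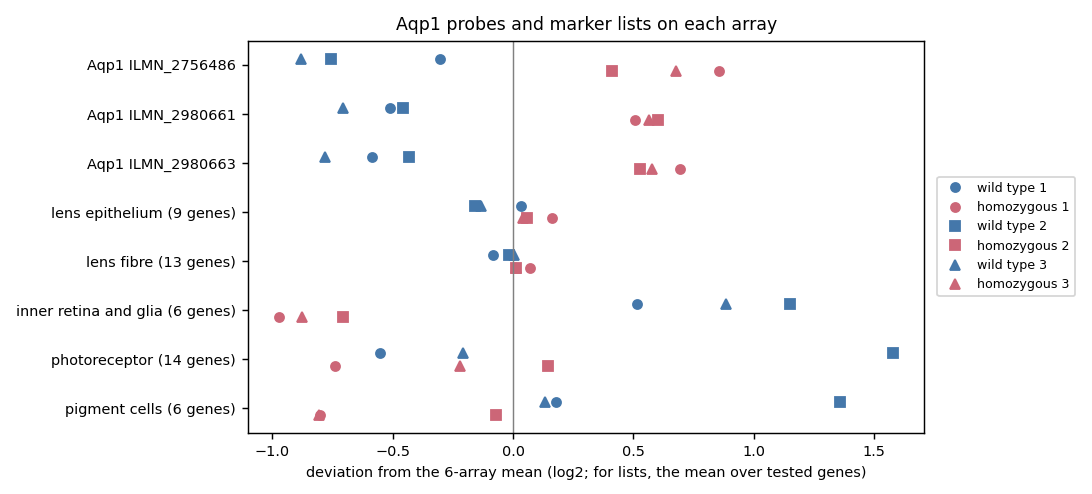
Deviation from the 6-array mean (log2, horizontal axis) of the 3 Aqp1 probes and of 5 marker lists, for which it is the mean over tested genes; blue is wild type, red homozygous, and shape gives the replicate. The Aqp1 probes lie higher in the homozygotes and the inner retina list lower. That list was known to be lower, and its genes met the detection filter through the wild type. The lens epithelium list (wild type -0.16 to 0.03, homozygous 0.04 to 0.16) is apart in the direction of Aqp1, by less. So is the lens fibre list (-0.082 to 0.006 and 0.010 to 0.070). Wild type replicate 2 stands at 1.58 for photoreceptor genes.

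The genes with a pattern most like each aquaporin were found by the root mean square difference between values centred on their 6-array mean, over 6 arrays and 6429 other genes. For Aqp1 they were Car9, a membrane-bound carbonic anhydrase, at 0.23, Ecrg4, a secreted peptide precursor, at 0.27, Gstk1, a glutathione transferase, at 0.27, and Gemin2, an assembly factor of small nuclear ribonucleoproteins, at 0.30, against a median of 0.71 over all genes. No gene came within 0.1 of Aqp1. Its own 3 probes differed too, for instance at -0.31, -0.51 and -0.58 from their 6-array means in wild type replicate 1. Nothing is therefore read from this limit. For Aqp5 the brighter probe, ILMN_3115472, was used, and ILMN_1259982, which differed from it in sign, was not. The closest were Slc30a6, Clk4, Patl1 and Dctn2, at 0.049 to 0.055, and 47 genes came within 0.1. For Mip, whose normalized values hardly vary, they were Rplp1, Atp6v1e1, Mrps24 and Ppm1d, and 453 genes came within 0.1, so likeness to Mip singles out little.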

How the data were processed

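Lens RNA of 6 mice was measured on Illumina BeadChips, 1 array per mouse. Per the file headers, the authors deposited a linear signal intensity per probe with a detection p-value. Its values carry background and differ in overall level between arrays. A second deposited table holds the authors' processed intensity, background-subtracted and normalized by a method not given in the sources used here. The submitters' processing notes name GenomeStudio 2011.1.

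Signals were background corrected in limma 3.58.1 (R 4.3.3) by the normal-exponential method (offset 16, negative controls estimated through the detection p-values), then quantile normalized and taken to log2. Probes detected (p under 0.05) on 3 or more arrays were tested by lmFit and eBayes with an intensity trend, genotype as the only term, two-sided, with Benjamini-Hochberg adjustment over all 8618 tested probes. A gene outside the aquaporins is represented by its probe of highest mean. Tested on simulated data for this comparison (8618 probes), the fit recovered 77 of 100 probes changed by 1 log2 unit and 97 of 100 changed by 2. The simulated noise was independent between probes and held no array-wide differences, and the simulation set the share of changed probes. These rates may therefore be too high for the real arrays. The offset pulls differences of dim probes toward 0, and the number of arrays limits the precision.

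Symbols came from the platform annotation (23978 of 25697 probes have 1, 0 have several and 1719 have none), updated through gene identifiers to GRCm38.p6. Start regions are RefSeq's. The aquaporins and gene lists were chosen with earlier results of these data known. Genes named are all aquaporins, in each list up to 4 that pass or the 2 of smallest p, and the 4 genes most like each aquaporin. Bfsp1, Bfsp2, Akap2, Ezr, Slc12a2, Atp1b1, Atp1b2, Atp1b3, Nfat5, Cryaa, Msx1, the genes that check genotype and sex, and genes named as not detected are outside this rule and were chosen after their values were seen, for their roles. Alternatives changed the background correction, scaling, filter, variance model, weights, sex covariate, replicate block and the arrays included, and used the authors' processed values with values under 1 set to 1. Replicate numbers were not used as pairs in the main fit.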

Additional observations from a re-analysis of the deposited data

How the results depend on the processing

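The count of changed probes was 35 (12 up, 23 down). Without background correction it was 22, an offset of 50 gave 23, and it was 20 with the authors' processed values, 20 with no intensity trend, 69 with array weights and 22 with sex as a covariate. Median scaling gave 826, of which 9 were up and 817 down, and no normalization between arrays gave 1636 (10 up, 1626 down), while the median of all tested probes was at -0.31 and -0.35. A pair of settings was chosen after seeing the data: neither background correction nor normalization gave 2436, and median scaling without background correction gave 53 (4 up, 49 down). Without 1 array at a time the count ran from 12 to 98. With the replicate number as a block it was 125. Same-numbered samples had correlations of their deviations of 0.204, 0.186 and -0.0302. Wild type replicate 2 with homozygous replicate 1 had -0.198, and wild type replicate 1 with homozygous replicate 2 had -0.212. The remaining pairs ran from -0.0178 to 0.0373. These values do not settle whether the numbers pair the samples, and the main fit used no pairing.

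The Aqp1 difference moved from 1.30 to 0.88 with median scaling, 0.84 with no normalization, 0.79 with neither correction and 0.86 with median scaling without background correction. In the same order Aqp5 (ILMN_3115472) moved from -0.27 to -0.70, -0.74, -0.68 and -0.61, and Mip from 0.02 to -0.066, -0.11, -0.11 and -0.036. Mip was at 0.36 with the authors' processed values. In these 4 settings the median over all tested probes was below 0, from -0.35 to -0.14. Median scaling equalizes the median over all probes on the array, not that of the tested probes. Without 1 array at a time Aqp1 ran from 1.19 to 1.47, Aqp5 from -0.35 to -0.18 and Mip from 0 to 0.04. Of 57 values for the 3 further probes 15 moved by more than the SD between replicates. Of 247 list counts 57 moved by more than 1.5 times. Probes near the detection limit, such as most other aquaporins, have no usable difference.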
